A study of Mus musculus with 73 samples.

Results

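The genes described are the kinesin motors, centromere and spindle checkpoint proteins, mitotic kinases, cyclin-dependent kinases with their inhibitors, cyclins B and E, and the numbered Cdc genes of a mouse cDNA microarray. They were chosen by name alone, as every array feature with 1 gene symbol that starts with Kif, Cenp, Bub, Plk or Aurk, with Nek or Cdc and a digit, or with Cdk, Ccnb or Ccne, leaving out Cdc42. This gave 78 of 9596 features, which stand for 69 of 6795 genes; 9 of the genes have 2 features. All 69 genes were measured on the arrays hybridised against a reference RNA, and 58 of them on the arrays that set a tumor directly against normal tissue. By their textbook roles the genes were read in groups, with 8 mitotic kinesins kept apart from 5 kinesins known from neurons and from 8 other kinesins.

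The study asked which expression changes are shared by tumors that the T/t-antigen of the virus SV40 causes in different organs. On 35 arrays a tissue labelled with Cy3 was compared with Stratagene Universal Reference RNA labelled with Cy5. The tumors were from the PB/SV40 T/t-antigen (TRAMP) model in prostate (n = 5) and seminal vesicle (n = 6) on strain C57BL/6, from the C3(1)/SV40 T/t-antigen model in mammary gland (n = 4) on FVB and from the CC10/SV40 T/t-antigen model in lung (n = 4) on FVB. Each is a transgene named for its promoter (PB for probasin, active in prostate, C3(1) for a prostatein gene and CC10 for a club cell protein of the airway), and the wild-type normal tissue of the same strain was measured on 4 arrays per site. On 38 further arrays a mammary tumor (Cy5) was set against wild-type normal mammary gland (Cy3) of the same strain. These tumors were p53-/-;transplant on Balb/c (n = 5), p53fp/fp;WAP-cre (n = 4) and Brca1 Co/Co;MMTV-cre;p53 (n = 5) on C57BL6/129sv, and 5 models on FVB: MMTV-ras, MMTV-PyMT, MMTV-her2/neu and C3(1)/SV40 T/t-antigen with 5 arrays each, and MMTV-myc with 4. WAP and MMTV are promoters active in mammary epithelium, her2/neu, myc, ras and PyMT are oncogenes, and p53 and Brca1 are tumor suppressor genes. Strain follows organ between the C57BL/6 sites and the FVB sites, so strain and site cannot be told apart there.

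During cell division kinesins of the mitotic spindle push, pull and carry microtubules and chromosomes, kinetochore proteins built on the centromere tie chromosomes to the spindle, and checkpoint proteins hold division back until all are attached. Aurora, Polo-like and Nek kinases and Cdk1 with its B-type cyclins drive these steps, while Cdk4 and Cdk6 act earlier by phosphorylating the retinoblastoma protein. The SV40 large T-antigen binds and blocks the retinoblastoma family and p53, and most genes of mitosis are transcribed only in dividing cells. Other kinesins carry vesicles and organelles in cells that do not divide, above all along axons.

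Promoters of many mitotic genes hold a cell cycle genes homology region, searched here as the letters TTTGAA and, in a rarer form, TTCGAA. They often hold boxes of the letters CCAAT as well. To show how far this letter pattern separates the kinesins, promoters of 3 mitotic kinesins and of Cdk1 are set beside those of Kif1a and Kif21a, kinesins of neurons. The sequences are from RefSeq (build GRCm38.p6), run from 250 bases before to 50 bases after the annotated start, and are written 5′ to 3′ on the gene's strand. Capitals mark these motifs on either strand.
Kif11, chr19:37376132-37376431, plus strand: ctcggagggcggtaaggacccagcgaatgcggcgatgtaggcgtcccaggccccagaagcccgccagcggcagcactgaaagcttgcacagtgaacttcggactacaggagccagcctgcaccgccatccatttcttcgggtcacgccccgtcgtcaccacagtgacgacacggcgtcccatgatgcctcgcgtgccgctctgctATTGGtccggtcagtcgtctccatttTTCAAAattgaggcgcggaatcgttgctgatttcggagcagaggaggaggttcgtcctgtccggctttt
Kif22, chr7:127042371-127042670, minus strand: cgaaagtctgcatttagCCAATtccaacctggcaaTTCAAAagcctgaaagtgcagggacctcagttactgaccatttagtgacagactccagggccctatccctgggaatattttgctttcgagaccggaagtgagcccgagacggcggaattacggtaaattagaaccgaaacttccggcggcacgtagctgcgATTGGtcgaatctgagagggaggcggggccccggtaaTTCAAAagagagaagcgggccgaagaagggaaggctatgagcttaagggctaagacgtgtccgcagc
Kif23, chr9:61946750-61947049, minus strand: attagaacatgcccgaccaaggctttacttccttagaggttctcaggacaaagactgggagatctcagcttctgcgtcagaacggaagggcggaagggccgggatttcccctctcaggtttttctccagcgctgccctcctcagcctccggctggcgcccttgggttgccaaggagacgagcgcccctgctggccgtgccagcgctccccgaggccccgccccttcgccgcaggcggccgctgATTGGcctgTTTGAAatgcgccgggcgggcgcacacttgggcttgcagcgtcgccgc
Cdk1, chr10:69352863-69353162, minus strand: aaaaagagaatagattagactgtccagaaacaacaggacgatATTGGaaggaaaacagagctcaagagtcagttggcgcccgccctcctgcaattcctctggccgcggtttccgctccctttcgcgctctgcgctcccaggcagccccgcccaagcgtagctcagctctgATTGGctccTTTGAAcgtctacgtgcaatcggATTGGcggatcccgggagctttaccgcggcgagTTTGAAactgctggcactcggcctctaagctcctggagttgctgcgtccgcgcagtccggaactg
Kif1a, chr1:93101825-93102124, minus strand: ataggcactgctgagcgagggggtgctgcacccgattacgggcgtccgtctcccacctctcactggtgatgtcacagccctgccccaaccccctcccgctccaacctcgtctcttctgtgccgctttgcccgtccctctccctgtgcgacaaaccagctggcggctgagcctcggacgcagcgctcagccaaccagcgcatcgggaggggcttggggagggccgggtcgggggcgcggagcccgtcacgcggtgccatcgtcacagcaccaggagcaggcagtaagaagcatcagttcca
Kif21a, chr15:91049902-91050201, minus strand: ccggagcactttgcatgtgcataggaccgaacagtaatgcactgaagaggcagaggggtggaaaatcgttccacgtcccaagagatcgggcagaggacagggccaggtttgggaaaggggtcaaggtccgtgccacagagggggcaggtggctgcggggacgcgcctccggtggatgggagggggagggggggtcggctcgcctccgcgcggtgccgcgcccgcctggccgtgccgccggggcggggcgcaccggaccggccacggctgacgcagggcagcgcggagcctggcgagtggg

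Of the 69 genes, 58 have a promoter in the table, with 69 promoters in all. TTTGAA was found in 7 of 7 promoters of mitotic kinesins, in 6 of 11 promoters of centromere and checkpoint genes and in 1 of 5 promoters of neuronal kinesins, the second promoter of Kif1a. In further groups TTTGAA was in 1 of 5 promoters of mitotic kinases, 1 of 4 of cell-cycle Cdks and 1 of 2 of cyclins B and E. It was in 3 of 3 promoters of the Cdc genes of replication and in 0 of 4 of the Cdc phosphatases and anaphase-promoting complex genes. The other kinesins had it in 0 of 7 promoters. Over all genes of the set the share was 34.8%, over the promoters of all genes measured on the arrays 12.6%, and over all 32851 listed promoters 17.9%. A CCAAT box was found in 71.4% of mitotic kinesin promoters, in 81.8% of centromere and checkpoint promoters and in 0 of the neuronal kinesin promoters, against 36.5% of the promoters of measured genes. The other kinesins had it in 6 of 7 promoters, so this box did not set mitotic kinesins apart from the rest. In Kif11 the CCAAT box begins at position -45 and the TTTGAA at position -19 relative to the start. These are matches of letters and not measured binding.

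Values are read as log2 ratios of tissue over reference RNA and of tumor over normal gland, directions taken as likely, the first from tissue markers and the second from the sign of the C3(1) changes on both array sets. A change on the reference arrays is the mean of the tumor arrays minus the mean of the normal arrays of that site, and on the direct arrays it is the mean log2 ratio of tumor over normal after each array was centred on its median. A gene was called changed at a Benjamini-Hochberg adjusted p under 0.05 in limma, adjusted over all genes tested. The reference arrays held 9244 to 9572 values and the direct arrays 7042 to 7934, and the number of arrays limits the precision. Arrays of the same set correlated over all features with r from 0.129 to 0.964 (reference) and from 0.117 to 0.88 (direct), so no array ran opposite to the others. Set against the average of the remaining normal tissues, normal lung was higher in 7 of 7 lung epithelium markers and normal mammary gland in 10 of 10 adipocyte markers. Normal prostate was higher in 0 of 4 secretory markers and in 8 of 9 epithelial markers, and skeletal muscle markers were high there. No label says that samples of a group came from separate animals, so p-values measure the spread between these samples, which may be technical.

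In prostate tumors 53 of the 69 genes were called, against 61.4% of all genes tested; 46 rose (29.2% of all genes rose) and 7 fell (32.2%). In seminal vesicle tumors 35 were called against 43.5% of all genes, 28 higher (23.3%) and 7 lower (20.2%). In mammary tumors 33 were called against 36.7%, 27 higher (16.6%) and 6 lower (20.1%). In lung tumors 40 were called against 36.5%, 33 higher (16.2%) and 7 lower (20.4%). The share of the genes that rose was above that of all genes at each site, and the share that fell was below it. The median log2 change of the 69 genes was 0.70 in prostate, 0.18 in seminal vesicle, 0.23 in mammary gland and 0.29 in lung, beside -0.03, 0.04, -0.02 and -0.06 over all genes. These are whole tissues, in which a larger share of dividing cells and more RNA per cell cannot be told apart. Arrays of neighbouring database numbers form blocks, and 4 of the prostate tumors lie in a block with no normal prostate. Only 1 prostate tumor array shares a block with normal prostates, 3 in number. The prostate counts and changes thus largely compare tumors and normals of different blocks, for which block and tumor cannot be told apart.

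The seminal vesicle counts depended on the processing. After quantile normalization 8 genes were called there, 4 higher and 4 lower, and 7 of the 35 calls were kept. With blocks of arrays of neighbouring database numbers, a label of the arrays, as a term in the fit, 12 were called, 10 higher and 2 lower, and 10 of the 35 calls were kept. Seminal vesicle tumor and normal arrays share no such block. The 4 normals share theirs with 1 mammary tumor array alone. Of the tumors, 2 share a block with prostate tumors and 1 normal lung, and the rest lie in blocks of their own. The block term thus links tumor and normal only through arrays of other tissues. Calls kept or lost with it in seminal vesicle cannot show whether a change holds.

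Mitotic kinesins rose together in prostate, mammary gland and lung. All 8 rose in prostate tumors (median change 2.05), 7 of 8 in mammary tumors (1.39) and 7 of 8 in lung tumors (1.84), Kif14 being the exception at both. In seminal vesicle tumors 4 of 8 rose and 1 fell (median 0.55). Only Kif20a was called there after quantile normalization (median 0.22). The block term, which cannot decide at this site, also left only Kif20a called (median 0.59). Kif11, a motor that slides spindle microtubules apart, had the largest change of the set at 3 of the 4 sites.

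Kif11 stood at 1.62, 0.57, 0.56, 0.40 and 1.68 in the prostate tumors, against -2.44, -2.45, -1.96 and -2.51 in normal prostates. In seminal vesicle tumors it ranged from -1.55 to -0.66 with a median of -1.27, against -2.38, -1.98, -2.12 and -2.61 in normal seminal vesicles. Tumor and normal arrays did not overlap at either site, but the seminal vesicle tumors stayed below every prostate tumor. Mammary tumors had 0.38, -0.11, 0.18 and -0.13, against -2.28, -2.32, -2.17 and -2.31 in normal glands. Lung tumors had 1.24, 0.86, 0.92 and 0.92, against -2.02, -2.20, -2.27 and -2.66 in normal lungs. The normal arrays of all 4 tissues lay close together, and the tumors were spread. The changes were 3.30 ± 0.21 in prostate (SE, adjusted p = 8.04e-15), 1.09 ± 0.20 in seminal vesicle (7.2e-05), 2.35 ± 0.22 in mammary gland (3.58e-10) and 3.27 ± 0.22 in lung (4.18e-13). In linear terms Kif11 was 9.87-fold higher in prostate tumors and 9.67-fold higher in lung tumors. In seminal vesicle the call on Kif11 was lost after quantile normalization (0.50, adjusted p = 0.0932). With the block term, which cannot decide there, Kif11 was at 1.15 (adjusted p = 0.133).

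Kif4, a motor on chromosome arms that shapes the central spindle, stood at 1.81, 1.57, 1.59, 1.62 and 2.57 in prostate tumors, against -0.98, -0.92, -0.97 and -1.32 in normal prostates. Its seminal vesicle tumors ranged from -0.56 to -0.32 with a median of -0.44, against -0.99, -0.84, -0.73 and -1.15 in normal seminal vesicles. Neither site overlapped between tumor and normal, and the gap was narrow in the seminal vesicle. The change was 2.88 ± 0.16 in prostate (SE, adjusted p = 5.59e-16), 0.49 ± 0.16 in seminal vesicle (0.0122), 1.67 ± 0.17 in mammary gland (2.26e-09) and 1.87 ± 0.17 in lung (3.61e-10). In the seminal vesicle this call was lost after quantile normalization (0.21, adjusted p = 0.389) and without normal array 4 (0.42, adjusted p = 0.0535). With the block term, which cannot decide there, Kif4 was at 0.56 (adjusted p = 0.363).

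**Figure D1:**
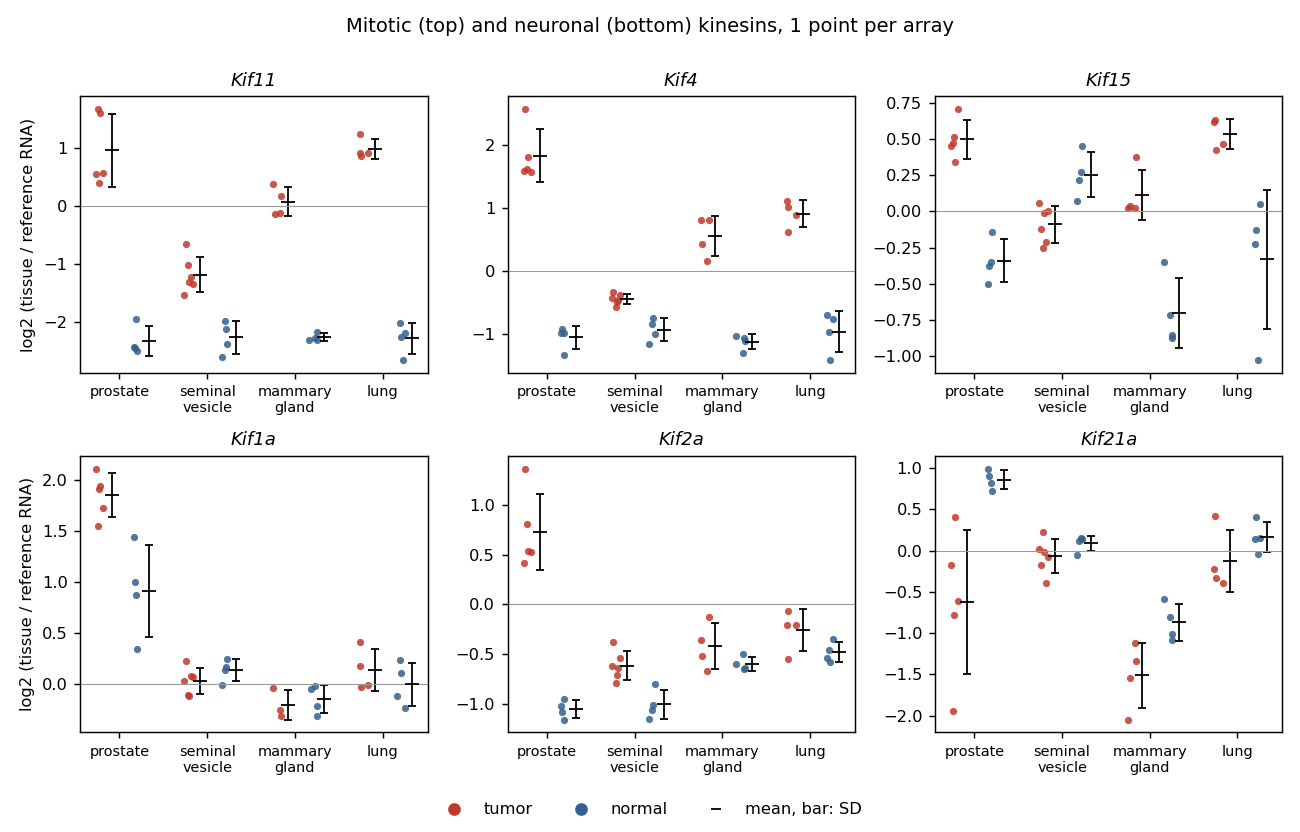
Log2 ratio of tissue over reference RNA (vertical axes) for Kif11, Kif4 and Kif15, mitotic kinesins, and Kif1a, Kif2a and Kif21a, neuronal kinesins, at the 4 sites; each point is 1 array, tumor (red) left of normal (blue), with the group mean and SD. Kif11 and Kif4 tumors lie above the normals at every site, Kif15 tumors lie below the normals in seminal vesicle, and Kif1a differs between tumor and normal in prostate.

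Kif15, a second motor of the bipolar spindle, rose in prostate (0.84 ± 0.14, adjusted p = 5.61e-06), mammary gland (0.82 ± 0.15, 4.87e-05) and lung (0.87 ± 0.15, 2.4e-05). In seminal vesicle it ranged from -0.25 to 0.06 in tumors, with a median of -0.07, against 0.45, 0.22, 0.27 and 0.08 in normal tissue. There the tumors lay below all normals, with a change of -0.34 ± 0.14 (adjusted p = 0.0413). That call was lost without any 1 of 6 single arrays (adjusted p up to 0.142), after quantile normalization and with either block term. The block of database numbers cannot decide this in seminal vesicle.

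Kif20a, a motor of cytokinesis, rose at all 4 sites, by 1.73 in prostate, 1.18 in seminal vesicle, 1.50 in mammary gland and 1.84 in lung, with SE of 0.14 to 0.16. It was the 1 mitotic kinesin that stayed called in seminal vesicle after quantile normalization, at 0.63. The block term, which cannot decide there, gave 1.57. Kif22, which moves chromosome arms away from the poles, rose by 2.61, 0.68, 1.25 and 1.84 at the same sites in that order. Kif23, of the central spindle, rose by 2.37 in prostate, 1.28 in mammary gland and 2.03 in lung, and was 0.29 ± 0.23 in seminal vesicle (adjusted p = 0.324). Kif20b, also of cytokinesis, rose by 1.33, 1.73 and 1.26 in prostate, mammary gland and lung, with an SE of 0.34 to 0.36, and was not called in prostate or lung within single blocks of database numbers. Kif14, a partner of citron kinase in cytokinesis, rose in prostate (0.87 ± 0.13), and its 0.30, 0.24 and 0.34 in seminal vesicle, mammary gland and lung were not called.

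The 5 kinesins read as neuronal did not move as a group. The border of this group is not sharp. Kif1b, which also carries synaptic vesicle precursors, was read with the other kinesins, and Kif2a also works at spindle poles. In prostate 2 of 5 rose and 2 fell (median 0.08), in seminal vesicle 1 rose and 1 fell (median -0.10), and in mammary gland and lung 0 of 5 were called (medians -0.04 and 0.12). At an unadjusted p under 0.05 the counts in these last sites were 1 and 0 of 5.

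Kif1a, which carries synaptic vesicle precursors along axons, stood at 1.94, 1.73, 2.11, 1.91 and 1.54 in prostate tumors, against 1.43, 1.00, 0.87 and 0.34 in normal prostates. All tumors were above all normals, the nearest pair by a small gap, and the change was 0.93 ± 0.14 (adjusted p = 1.47e-06). In the 1 block of database numbers that holds both kinds, with tumor array 5 and normal arrays 1 to 3, it was 0.44 (adjusted p = 0.13). At the other sites Kif1a was -0.10, -0.06 and 0.14 and not called. Kif2a, a microtubule-depolymerising motor that trims axon branches and also works at spindle poles, had 0.53, 0.52, 0.41, 0.81 and 1.36 in prostate tumors, against -1.02, -1.08, -0.94 and -1.15 in normal prostates. This change of 1.78 ± 0.13 (adjusted p = 4.25e-13) was the largest rise of the group. In seminal vesicle Kif2a rose by 0.39 ± 0.13 (adjusted p = 0.0147), a call lost after quantile normalization (0.08) and without normal array 4 (adjusted p = 0.0552). The call was also lost with the block term (0.60), which cannot decide there.

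Kif21a, a motor that slows microtubule growth in neurons, fell in prostate tumors: 0.41, -0.61, -0.17, -0.78 and -1.94, against 1.00, 0.91, 0.82 and 0.72 in normal prostates. The groups did not overlap, and the tumors were spread over more than 2 log2 units, with array 5 lowest. The change was -1.48 ± 0.25 (adjusted p = 7.27e-06). In mammary gland it was -0.64 ± 0.27 (adjusted p = 0.0594). Kifc2, a motor found in neurons that runs to the minus end, fell in prostate (-0.40 ± 0.11, adjusted p = 0.00168) and seminal vesicle (-0.56 ± 0.10, adjusted p = 6.23e-05). The second call was kept after quantile normalization. It was also kept with the block term, which cannot decide in seminal vesicle. Kif21b, a close relative of Kif21a, was called at no site (0.08, 0.16, 0.09 and 0.12).

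In prostate these changes stand beside large shifts of other markers. Of 14 neuronal and neuroendocrine markers 13 rose, with a median change of 2.32 and array means of 1.90 to 2.42 in tumors, against 0.01 to 0.06 in normals. All 13 skeletal muscle markers fell, with array means of -0.15 to 0.11 in tumors, against 3.65 to 4.57 in normals. All 9 epithelial markers fell too (-0.84 to -0.53 in tumors, against 1.32 to 1.58 in normals), and so did all 10 adipocyte markers (-0.11 to 0.09 in tumors, against 1.53 to 1.77 in normals). In seminal vesicle tumors 0 of the 14 neuronal and neuroendocrine markers rose and 3 fell. The part of these markers in the kinesin changes was not tested.

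Among the other kinesins, the change differed most among the sites for Kif1b and Kif3a by moderated F (adjusted p = 1.16e-08 and 1.97e-08). Kif1b, a carrier of mitochondria and synaptic vesicle precursors, had 0.51, 0.47, 0.88, 0.64 and 0.52 in prostate tumors, against 2.56, 2.57, 1.98 and 1.95 in normal prostates. The tumors lay below every normal, 3.17-fold lower on average (-1.66 ± 0.15, adjusted p = 3.82e-11). Both features of Kif1b were called but differed in size, at -2.58 and -0.75. In mammary gland it was 0.50, 0.56, 0.84 and 0.32 in tumors, against 1.09, 0.80, 0.89 and 1.49 in normals, with an overlap (-0.51 ± 0.16, adjusted p = 0.0112). Skeletal muscle markers averaged 0.10 to 2.17 per array in these tumors and -0.19 to 3.41 in these normals, and their part was not tested. The call was lost after quantile normalization (-0.32) and without normal array 4 (-0.37) or tumor array 4 (-0.44). Seminal vesicle and lung had 0.35 ± 0.15 (adjusted p = 0.0554) and -0.11 ± 0.16 for Kif1b; in seminal vesicle the feature with the larger prostate fall was called higher (0.63, adjusted p = 0.0116) and the other was at 0.06.

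Kif3a, Kif3b and Kifap3 form a trimeric motor that builds cilia. Kif3a and Kif3b rose in prostate tumors (1.56 ± 0.13, adjusted p = 5.68e-12, and 0.61 ± 0.13, adjusted p = 0.000109) and at no other site. Taken alone, 1 of the 2 features of Kif3b was called in seminal vesicle. Kif3a stood at 1.01, 0.99, 1.03, 0.64 and 0.07 in those tumors, against -0.98, -0.84, -0.77 and -0.66 in normal prostates. Tumor array 5 was the lowest of the tumors and still above each normal. Kifap3, the adaptor, fell in mammary gland (-1.27 ± 0.45, adjusted p = 0.0259) and lung (-1.28 ± 0.45, adjusted p = 0.0259). It was -0.68 in prostate, not called, and its change was not called as different among the sites (moderated F, adjusted p = 0.161). Both Kifap3 calls were lost after quantile normalization (-0.43 in each) and within single blocks (adjusted p = 0.177 and 0.165). Kif16b, which moves early endosomes, fell in prostate (-1.07 ± 0.12, adjusted p = 2.61e-09). Kif5b, the ubiquitous conventional kinesin, rose in mammary gland (0.53) and seminal vesicle (0.34), Kif13b fell in mammary gland (-0.51), and Kif6 was called at no site, with 0.31, -0.20, -0.11 and -0.21.

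The centromere and checkpoint genes followed the mitotic kinesins. Of 9 genes 8 rose in prostate (median 1.91), 6 rose and 1 fell in seminal vesicle (0.59), 6 rose and 1 fell in mammary gland (0.92) and 7 rose in lung (0.89). Cenpf, a large kinetochore protein, had 1.17, 1.20, 1.14, 1.53 and 2.01 in prostate tumors, against -1.46, -1.08, -1.23 and -1.11 in normal prostates. Its mammary tumors had 0.31, -0.07, 0.90 and -0.02, against -1.33, -1.93, -1.36 and -1.02 in normal glands. Tumors lay above normals at both sites, and the changes over the 4 sites were 2.63 ± 0.21, 0.93 ± 0.20, 1.69 ± 0.22 and 2.00 ± 0.22 for prostate, seminal vesicle, mammary gland and lung, all called.

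Cenpe, a kinesin of the kinetochore that brings chromosomes to the spindle equator, rose by 2.07, 0.98, 1.62 and 2.37 in the same order of sites, and Cenpa, the histone variant that marks centromeres, by 2.09, 0.61, 1.54 and 1.38. Bub1b, of the spindle checkpoint, rose by 2.22, 0.96, 1.06 and 1.44, and it kept its seminal vesicle call after quantile normalization (0.49). The block term, which cannot decide in seminal vesicle, gave 1.46. Bub3, the partner of Bub1b, rose by 1.77 in prostate, 0.59 in seminal vesicle and 0.82 in lung, with 0.37 in mammary gland not called. Cenpw, of the inner kinetochore, had 0.23, 0.38, 0.15, -0.03 and 0.03 in prostate tumors, against -1.85, -1.83, -1.87 and -1.49 in normals, a change of 1.91 ± 0.19 (adjusted p = 1.9e-10). In seminal vesicle the Cenpw arrays of tumor and normal overlapped (0.04), and in mammary gland and lung it rose by 0.92 and 0.89. Cenpt, which binds Cenpw, rose by 0.36 to 0.51 at all 4 sites. Cenpx, a small histone-fold protein of the same layer, went the other way, at -0.29 in seminal vesicle and -0.40 in mammary gland, and Cenpb, which binds a repeat of centromeric DNA, rose in prostate (1.13) and was called at no other site.

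All 5 mitotic kinases rose in prostate (median 1.67), mammary gland (1.33) and lung (1.47), and in seminal vesicle 3 rose and 1 fell (0.35). Aurkb, the kinase of the chromosomal passenger complex, had 0.26, 0.40, 0.44, 0.03 and -0.04 in prostate tumors, against -2.39, -2.04, -2.05 and -1.87 in normal prostates. Its seminal vesicle tumors ranged from -1.58 to -1.01 with a median of -1.22, against -1.75, -1.61, -1.24 and -1.78 in normal tissue, and these groups overlapped. The changes were 2.30 ± 0.14 in prostate (adjusted p = 1.48e-15), 0.35 ± 0.13 in seminal vesicle (0.0284), 1.33 ± 0.14 in mammary gland (5.74e-09) and 1.47 ± 0.14 in lung (1.2e-09). For seminal vesicle the sign of the Aurkb change turned after quantile normalization (-0.13), and the call was lost without any 1 of 5 single arrays (adjusted p up to 0.104). The block term, which cannot decide there, gave -0.01.

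Nek2, a centrosome-splitting kinase, had 0.66, 0.37, 0.18, 0.50 and 0.46 in prostate tumors, against -2.30, -2.06 and -1.85 in the 3 normal prostates with a value. Its changes were 2.50 ± 0.16, 0.54 ± 0.14, 2.07 ± 0.16 and 1.58 ± 0.16 in prostate, seminal vesicle, mammary gland and lung, all called, and the seminal vesicle value was -0.03 after quantile normalization. Plk4, the trigger of centriole duplication, rose by 1.67, 1.40 and 1.49 in prostate, mammary gland and lung, and was 0.06 in seminal vesicle. Plk1, which acts from mitotic entry to cytokinesis, rose by 0.70, 0.76 and 0.67 in prostate, mammary gland and lung. In seminal vesicle Plk1 ranged from -1.13 to -0.56 in tumors with a median of -0.73, against -0.69, -0.22, -0.29 and -0.37 in normal tissue. The groups overlapped in normal array 1, and the change was -0.40 ± 0.14 (adjusted p = 0.017) and -0.59 after quantile normalization (adjusted p = 0.0012). With the block term, which cannot decide there, the change was 0.03. Nek6, a kinase of spindle assembly, rose at all 4 sites, by 0.92, 0.41, 0.75 and 0.59.

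**Figure D2:**
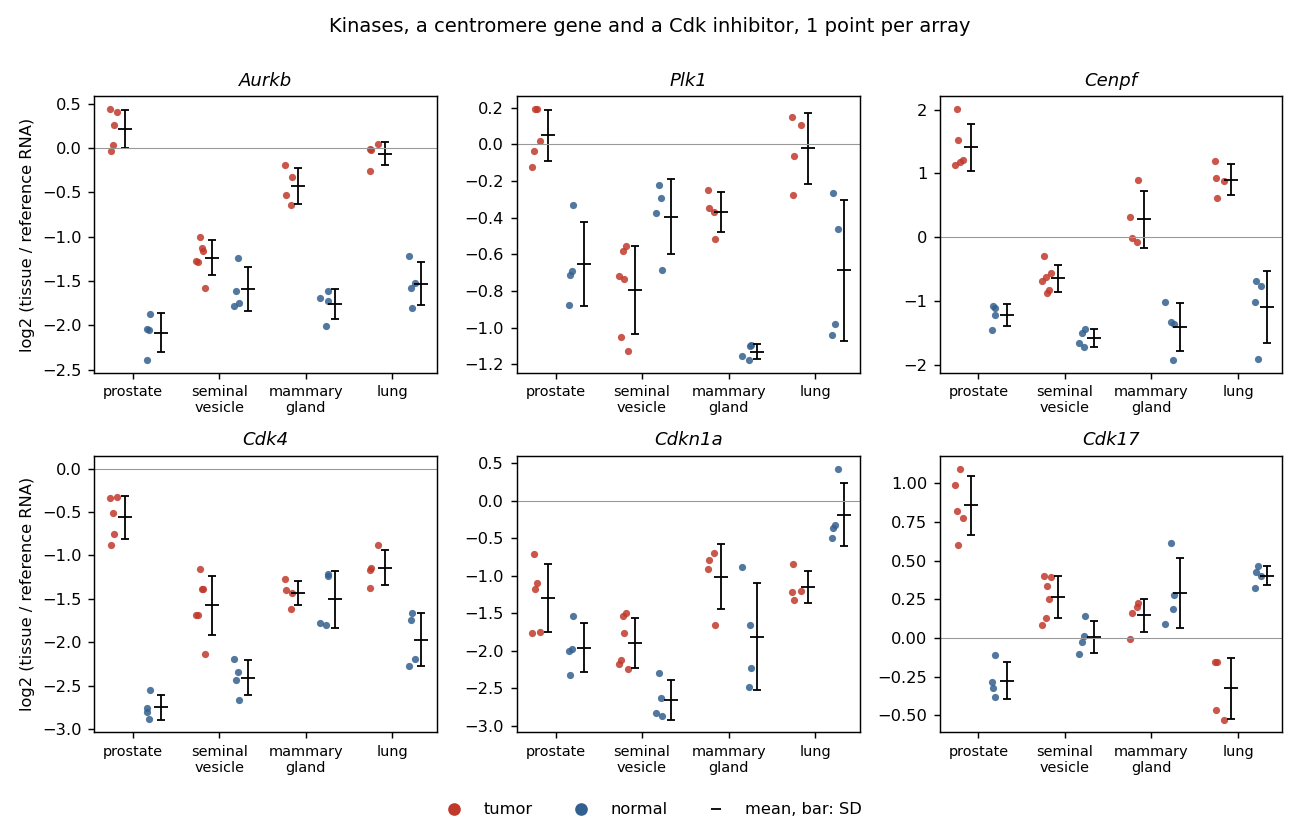
Log2 ratio of tissue over reference RNA for Aurkb, Plk1, Cenpf, Cdk4, Cdkn1a and Cdk17 at the 4 sites; each point is 1 array, tumor (red) left of normal (blue), with the group mean and SD. Aurkb and Cenpf tumors lie above the normals in prostate, mammary gland and lung, Plk1 tumors are the lower group in seminal vesicle, and Cdkn1a and Cdk17 tumors are the lower group in lung.

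Of the cell-cycle Cdks, Cdk1, the kinase of mitotic entry, rose at all 4 sites, by 2.15 ± 0.20 in prostate (adjusted p = 4.12e-11), 0.67 ± 0.19 in seminal vesicle (0.00534), 1.54 ± 0.21 in mammary gland (4.59e-07) and 1.94 ± 0.21 in lung (7.86e-09). Cdk4, a partner of D-type cyclins, had -0.76, -0.33, -0.34, -0.52 and -0.88 in prostate tumors, against -2.80, -2.76, -2.88 and -2.55 in normal prostates. In mammary gland it had -1.28, -1.62, -1.43 and -1.40 in tumors, against -1.80, -1.24, -1.21 and -1.78 in normals. Prostate tumors and normals were far apart, while the mammary groups overlapped fully. Cdk4 changed by 2.19 ± 0.17 in prostate (adjusted p = 4.42e-13), 0.83 ± 0.16 in seminal vesicle (9.8e-05) and 0.83 ± 0.17 in lung (0.000293), and by 0.07 ± 0.17 in mammary gland (0.794).

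Cdk6, the other partner of D-type cyclins, had -0.82, -0.89, -0.75, 0.48 and 1.41 in prostate tumors, against -1.27, -1.004, -1.33 and -1.20 in normal prostates, and -1.37, -1.64, -1.40 and -1.46 in lung tumors, against -0.47, -0.50, -0.96 and -1.02 in normal lungs. Groups did not overlap at either site, but in prostate 3 tumors lay just above the normals and arrays 4 and 5 far above. The change was 1.09 ± 0.27 in prostate (adjusted p = 0.000708) and -0.73 ± 0.28 in lung (0.0418), and the 2 features of Cdk6 differed in size. Cdk7, which activates other Cdks and belongs to a transcription factor complex, was called at no site, with -0.14, -0.10, -0.07 and 0.26.

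Cdkn1a, a Cdk inhibitor and target of p53, was the inhibitor that changed in both directions. It rose in prostate (0.66 ± 0.26, adjusted p = 0.0282), seminal vesicle (0.76 ± 0.25, 0.0137) and mammary gland (0.80 ± 0.27, 0.0209), but the prostate and mammary calls were lost without any 1 of 6 and of 4 single arrays. In seminal vesicle the value was 0.02 after quantile normalization and 2.01 with the block term, which cannot decide there. In lung it had -1.22, -1.32, -1.21 and -0.84 in tumors, against -0.50, 0.43, -0.36 and -0.33 in normals. The lung tumors lay below all normals, and the change was -0.96 ± 0.27 (adjusted p = 0.00581). Cdkn1c, an imprinted inhibitor, fell in mammary gland (-0.78 ± 0.22, adjusted p = 0.00572), with 0.47, 0.17 and 0.39 at the other sites. Of the inhibitors that bind Cdk4 and Cdk6, Cdkn2d rose in prostate (1.28) and seminal vesicle (0.36), and Cdkn2b in seminal vesicle (0.45) and lung (0.44). Cdkn2aip, a partner of the Arf tumor suppressor, rose by 0.28, 0.76 and 0.61 in prostate, mammary gland and lung.

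Cdk17, a Cdk relative of the PCTAIRE type found mainly in cells that no longer divide, changed most among the 4 sites by moderated F. It had 1.09, 0.78, 0.99, 0.60 and 0.82 in prostate tumors, against -0.28, -0.33, -0.11 and -0.38 in normal prostates. In lung it had -0.16, -0.16, -0.53 and -0.46 in tumors, against 0.32, 0.40, 0.43 and 0.46 in normals. Tumors and normals did not overlap at either site and lay in opposite order. The change was 1.13 ± 0.11 in prostate (adjusted p = 6.1e-11), 0.26 ± 0.10 in seminal vesicle (0.04), -0.15 ± 0.11 in mammary gland (0.337) and -0.73 ± 0.11 in lung (3.93e-06). Cdk5r1, the activator of Cdk5 in neurons, rose in prostate (1.35 ± 0.12, adjusted p = 1.37e-11) and was called at no other site, while Cdk5 itself gave 0.52 (called) on 1 feature and -0.14 on the other. Cdk14 rose in both TRAMP sites (0.96 and 1.06), Cdk18 fell in prostate (-1.02) and lung (-0.51), and Cdkl2 fell in prostate (-1.17); these are Cdk relatives with less settled roles. Cdk13, a kinase of RNA polymerase, rose in prostate, seminal vesicle and lung (0.80, 0.46 and 0.52).

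Genes of replication and of the Cdc group changed unequally. Cdc7, the kinase that fires replication origins, rose at all 4 sites by 1.99, 0.64, 0.83 and 0.95. Cdc45, a helicase factor, rose in prostate (0.33) and lung (0.29) and fell in seminal vesicle (-0.31), where it stayed called after quantile normalization (-0.39). Cdc25a, a phosphatase that activates Cdks, rose in prostate (0.70) and lung (0.89), and Cdc25c, its mitotic relative, by 0.57 and 0.29 at the same sites. Cdc16, of the anaphase-promoting complex, rose in prostate (1.02), seminal vesicle (0.35) and lung (0.29). Ccnb2, a B-type cyclin, rose in mammary gland (0.55) and lung (0.45) and fell in seminal vesicle (-0.30), and Ccne1, a cyclin of the start of replication, rose in prostate, seminal vesicle and mammary gland (0.68, 0.39 and 0.44). Cdc5l, a splicing factor, rose at all sites (0.38 to 0.96), and the Hsp90 partner Cdc37 was called at none. The 2 features of Cdc37 differed in seminal vesicle, at 0.40 (called, adjusted p = 0.0023) and -0.12 (not called).

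Counted over sites, 15 genes rose at all 4: Aurkb, Bub1b, Cdc5l, Cdc7, Cdk1, Cenpa, Cenpe, Cenpf, Cenpt, Kif11, Kif20a, Kif22, Kif4, Nek2 and Nek6. After quantile normalization 2 of these 15 stayed called higher at all 4 sites (Bub1b and Kif20a), and with the block term 3 did (Bub1b, Kif20a and Nek6). The block term cannot decide the seminal vesicle part of that count. None of the 69 fell at all 4. In prostate, mammary gland and lung together 22 rose, of which Kif15 and Plk1 fell in seminal vesicle. Another 8 rose in prostate and were called at no other site (Cdk5, Cdk5r1, Cenpb, Kif14, Kif1a, Kif3a, Kif3b and Nek4), and 6 were called at no site (Cdc37, Cdk16, Cdk7, Kif21b, Kif6 and Nek8). These calls rest on the mean of a gene's features. In seminal vesicle 1 of 2 features was called for each of Cdc37, Cdk5 and Kif3b. The share of all genes with each of these patterns over sites was not counted. Whether the set exceeds that share was therefore not tested. In prostate 43 genes had every tumor array above every normal array, where 24.9% of all genes did, and the counts were 24 in seminal vesicle (16.7%), 24 in mammary gland (14.0%) and 28 in lung (15.5%).

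**Figure D3:**
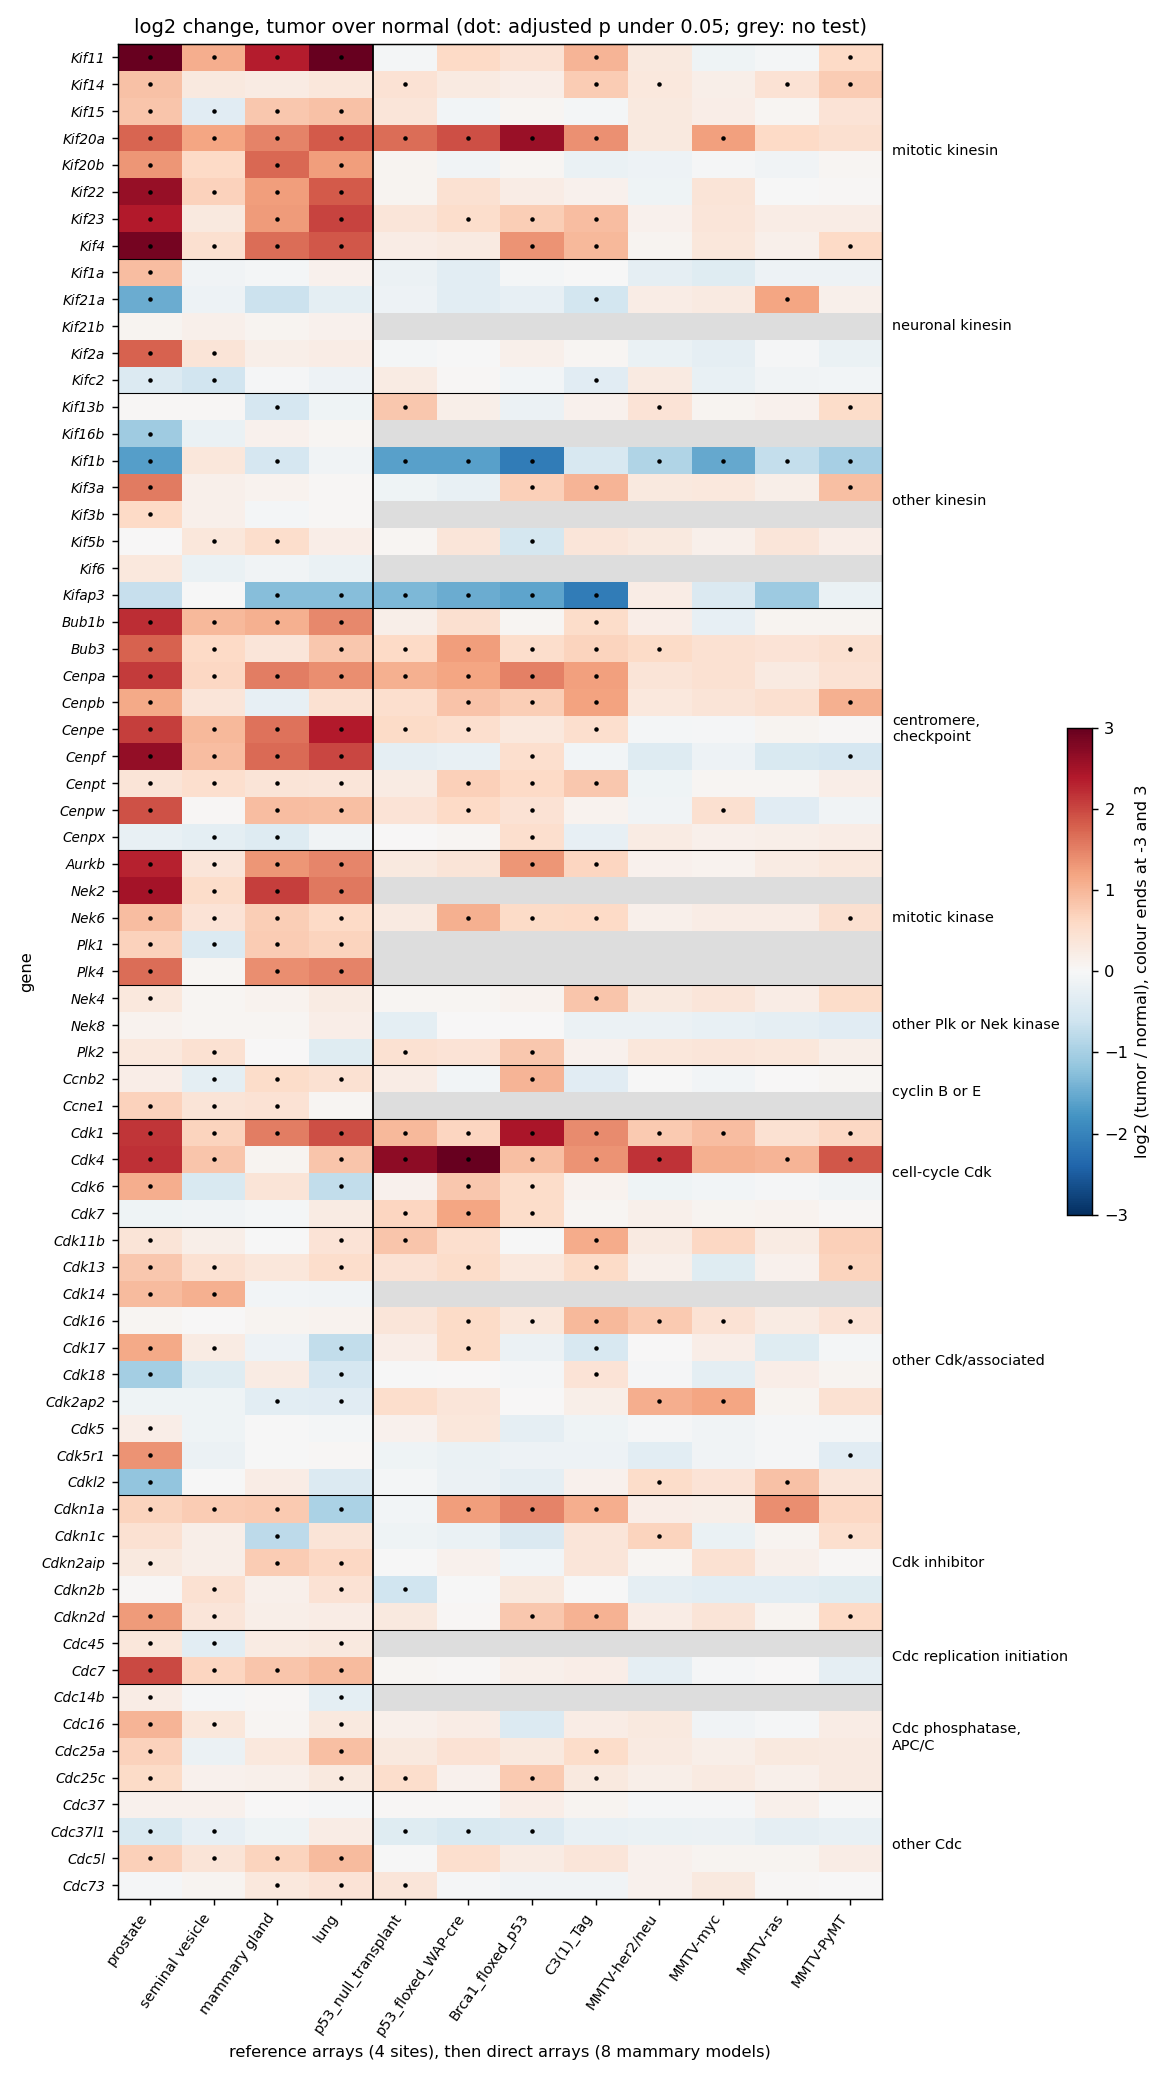
Log2 change, tumor against normal, of the 69 genes (rows, grouped by role) at the 4 sites and in the 8 direct models (columns), in colours from -3 to 3; a dot marks an adjusted p under 0.05 and grey a gene with no test. The mitotic kinesins, centromere genes and mitotic kinases form the bands of rises at the sites, and Kif1b is the row of falls in 7 of the 8 models.

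The tumor change differed among the 4 sites for 55 of the 69 genes by moderated F, against 74.1% of all genes, a share close to that of all genes. The TRAMP pair was compared directly. Prostate changes exceeded seminal vesicle changes for 38 genes and fell short for 6, 44 in all, against 46.7% of all genes (22.6% and 24.1%). The excess was 2.22 ± 0.29 for Kif11 (adjusted p = 1.61e-07), 2.39 ± 0.23 for Kif4 (2.79e-10), 1.96 ± 0.22 for Nek2 (8.96e-09) and 1.95 ± 0.19 for Aurkb (4.55e-10), and it was -2.01 ± 0.21 for Kif1b (2.44e-09). With the block term 23 of these differences were called, 21 higher and 2 lower. Prostate tumor array 5 shares a block with normal prostates while arrays 1 to 4 share one with 2 seminal vesicle tumors, and no block holds normal tissue of both sites.

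Lung and mammary tumors, both on FVB, differed in 9 genes, a smaller share than the 24.2% over all genes, with 5 higher in lung (12% of all genes) and 4 lower (12.2%). The change in lung exceeded that in mammary gland for Cdkn1c (1.17), Kif11 (0.93 ± 0.31, adjusted p = 0.0287), Cdk4 (0.76 ± 0.25, 0.0234), Cdc25a (0.57) and Cdk11b (0.44). It was below that in mammary gland for Cdkn1a (-1.75 ± 0.39, adjusted p = 0.00107), Cdk6 (-1.10), Cdk17 (-0.58) and Cdc14b (-0.34). The Kif11 and Cdk4 differences were lost without any 1 of 4 and of 5 single arrays. Normal mammary gland is rich in fat: adipocyte markers averaged 0.40 to 1.81 per array in mammary tumors against 3.16 to 3.57 in normal glands, and 0.18 to 0.49 in lung tumors against 0.63 to 0.97 in normal lungs. Of 10 lymphocyte markers 9 fell in mammary and 8 in lung tumors; epithelial markers rose, 6 of 9 in mammary tumors (median 0.75) and 8 of 9 in lung tumors (1.30). The part of these markers in the gene changes was not tested.

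Genes of mitosis outside the set, 24 measured of a list of 39, moved the same way: 21 rose and 1 fell in prostate (median 2.26), 20 and 1 in seminal vesicle (0.74), 21 and 1 in mammary gland (1.11) and 22 and 2 in lung (1.71). Of all genes 29.2%, 23.3%, 16.6% and 16.2% rose, and 32.2%, 20.2%, 20.1% and 20.4% fell, at the sites in that order. The list was chosen with earlier results of these data known, so its direction is no independent support. Top2a, the topoisomerase that untangles chromosomes, rose by 3.71, 1.61, 1.83 and 3.02 at these sites, and Ube2c, a ubiquitin-conjugating enzyme of anaphase, fell in prostate, mammary gland and lung (-0.43, -0.90 and -0.84). Microtubule motors other than kinesins, 13 measured, showed no such direction, with 6 higher and 3 lower in prostate and 2 higher and 2 lower in mammary gland.

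On the direct arrays, Brca1-deficient and C3(1) tumors held the most calls of the 58 genes measured. Brca1 Co/Co;MMTV-cre;p53 tumors had 27 calls against 46.8% of all genes, 23 higher (24.5%) and 4 lower (22.3%), and C3(1)/SV40 T/t-antigen tumors had 29 against 41.8%, 25 higher (22.1%) and 4 lower (19.8%). The p53fp/fp;WAP-cre tumors had 20 calls against 29.2%, 17 higher (17.3%) and 3 lower (11.9%), and the p53-/-;transplant tumors had 17 against 21.1%, 13 higher (10.2%) and 4 lower (10.9%). MMTV-PyMT tumors had 17 calls against 30.0%, 14 higher (18.5%) and 3 lower (11.6%). MMTV-her2/neu had 10 against 25.8%, 9 higher (15.0%) and 1 lower (10.8%). MMTV-myc had 6 against 22.9%, 5 higher (12.6%) and 1 lower (10.3%), and MMTV-ras had 6 against 19.2%, 5 higher (10.2%) and 1 lower (8.96%). In these last 3 models the share called was below that of all genes, and in the Brca1 and MMTV-PyMT models it was close to it.

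The direct counts depended on centring, since the array medians before centring ran from -0.42 to 0.67. With the values as deposited C3(1) tumors had 39 higher and 1 lower, MMTV-myc 17 and 1, and MMTV-ras 11 and 0. Quantile normalization gave 10 higher and 5 lower for MMTV-ras and 11 higher and 3 lower for MMTV-her2/neu. The dyes were never swapped on these arrays, so a dye effect on a gene would enter every model alike.

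Cdk1 and Cdk4 were higher in 7 of the 8 models each, and none of the 58 genes in all 8. For these and the later counts of models per gene, the share of all genes called in as many models was not counted. Cdk1 stood at 2.96, 2.56, 2.86, 1.34 and 2.50 in Brca1 tumors (2.44 ± 0.19, adjusted p = 3.73e-12) and at 1.37, 2.07, 0.52, 1.60 and 1.53 in C3(1) tumors (1.42 ± 0.19, 8.8e-07). All of these arrays were above 0. The smallest value was in MMTV-ras, at 0.45 ± 0.19 (adjusted p = 0.102). Cdk4 had 3.00, 2.95, 3.06, 2.21 and 2.23 in p53-/-;transplant tumors (2.69 ± 0.34, adjusted p = 5.15e-07) and 3.02, 2.55, 2.92 and 3.72 in p53fp/fp;WAP-cre tumors (3.05 ± 0.38, 3.89e-07). It had 2.38, 1.44, -0.82, 1.32 and 2.40 in C3(1) tumors, where array 3 alone was below 0 (1.34 ± 0.34, adjusted p = 0.00227). For the same tumor model the reference arrays had given 0.07 for Cdk4, with the tumor in Cy3 rather than Cy5 and normal glands on separate arrays. Cdk7 rose by 1.18 in p53fp/fp;WAP-cre, 0.64 in p53-/-;transplant and 0.55 in Brca1 tumors and was called in no other model, and Cdk16, a PCTAIRE kinase, rose in 6 models by 0.34 to 0.96.

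Of the mitotic kinesins, Kif20a rose in 5 models: 1.98, 1.65, 1.32, 2.08 and 1.36 in p53-/-;transplant tumors, 2.90, 2.63 and 2.23 on the 3 Brca1 arrays with a value, and -0.77, 2.42, 0.14, 2.92 and 2.15 in C3(1) tumors. The p53-/-;transplant and Brca1 arrays were all above 1, and the C3(1) arrays were split. The changes were 1.68 ± 0.35, 2.58 ± 0.46 and 1.37 ± 0.35 in these models, with 1.93 in p53fp/fp;WAP-cre and 1.24 in MMTV-myc, all called. Kif14 rose in 5 models, by 0.32 to 0.77. Kif4 rose in Brca1 (1.34 ± 0.14, adjusted p = 1.9e-09), C3(1) (0.98 ± 0.13, 3.35e-07) and MMTV-PyMT tumors (0.60 ± 0.13, 0.000525). Kif11, largest on the reference arrays, rose in C3(1) (1.01 ± 0.21, adjusted p = 0.000256) and MMTV-PyMT tumors (0.59 ± 0.21, 0.0295), and its values between -0.13 and 0.59 in the other models were not called. Kif15, Kif20b and Kif22 were called in none of the 8. Of the 8 mitotic kinesins 5 rose in C3(1) tumors (median 0.84), 3 in Brca1 (0.33) and MMTV-PyMT (0.44), 2 in each p53 model (0.29 and 0.36) and 1 in each of MMTV-her2/neu, MMTV-myc and MMTV-ras (0.20, 0.26 and 0.10).

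**Figure D4:**
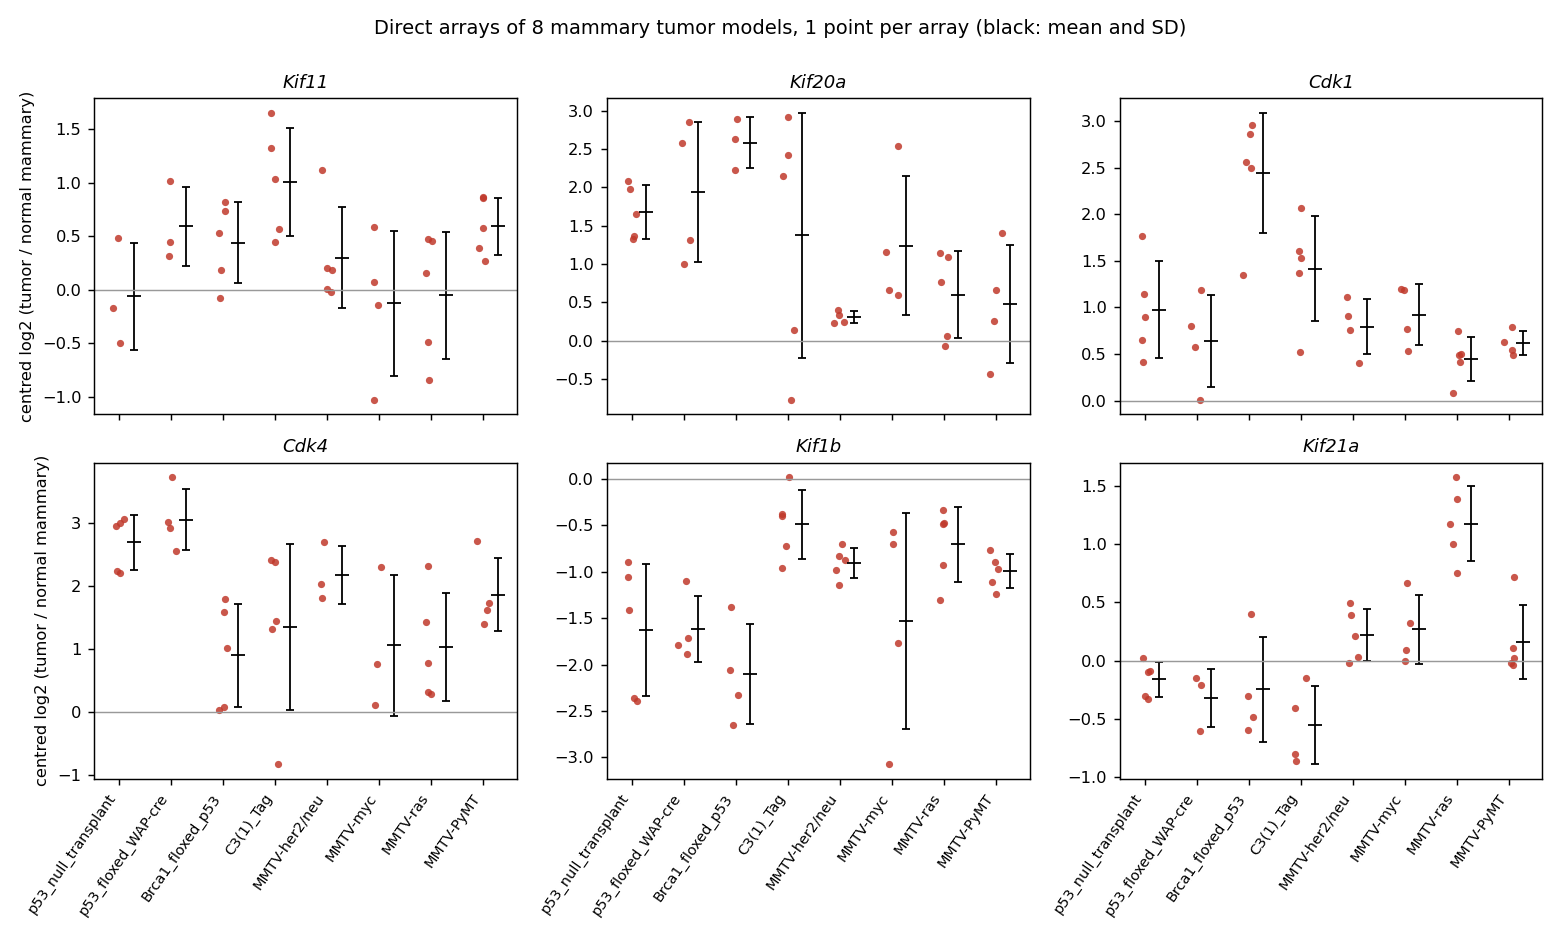
Log2 ratio of mammary tumor over normal gland, each array centred on its median, for Kif11, Kif20a, Cdk1, Cdk4, Kif1b and Kif21a in the 8 direct models; each point is 1 array, with the mean and SD. Cdk1 is highest in Brca1 tumors and Cdk4 in the p53 models, Kif1b lies below 0 in each model but for 1 C3(1) array, and Kif21a lies above 0 on all 5 MMTV-ras arrays.

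Kif1b, measured on the direct arrays by 1 of its 2 features, the one with the larger prostate fall, was lower in 7 models and was the gene of the set with falls in the most models. How many of all genes fell in as many models was not counted. It had -2.65, -2.32, -1.38 and -2.06 in Brca1 tumors (-2.10 ± 0.26, adjusted p = 5.14e-08) and -1.41, -2.36, -1.06, -2.39 and -0.90 in p53-/-;transplant tumors (-1.62 ± 0.23, 2.71e-06). The C3(1) arrays, at -0.72, 0.02, -0.96, -0.38 and -0.40, were nearest to 0 (-0.49 ± 0.23, adjusted p = 0.0908). The MMTV-ras call (-0.70) was lost without any 1 of 3 single arrays. Kifap3 fell in C3(1) tumors (-2.10 ± 0.45, adjusted p = 0.000331), in Brca1 tumors (-1.59) and in both p53 models (-1.34 and -1.48). Kif3a rose in C3(1) (1.03 ± 0.18), MMTV-PyMT (0.91 ± 0.18) and Brca1 tumors (0.72 ± 0.18), and Kif13b in p53-/-;transplant (0.82), MMTV-PyMT (0.54) and MMTV-her2/neu tumors (0.40). Kif5b was called lower in Brca1 tumors (-0.52), but its features differed, at -1.10 (called) and 0.06 (not called), and the call was lost after quantile normalization. Skeletal muscle markers had array means of -4.63 to -1.48 over the 8 models and adipocyte markers of -4.00 to -1.20, and their part in the Kif1b and Kifap3 values was not tested.

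Of the 4 neuronal kinesins measured on the direct arrays, Kif21a was the 1 that rose anywhere. In MMTV-ras tumors it had 0.75, 1.00, 1.17, 1.57 and 1.38 (1.18 ± 0.14, adjusted p = 2.39e-07), and in C3(1) tumors -0.40, -0.80, -0.15 and -0.86 (-0.55 ± 0.15, 0.00456). The arrays of these models lay on opposite sides of 0. Kifc2 fell in C3(1) tumors (-0.34), a call lost after quantile normalization and without centring, as was the Kif21a call in C3(1) without centring (-0.17, adjusted p = 0.524). Kif1a and Kif2a were called in no model, with values from -0.35 to -0.02 and from -0.28 to 0.16.

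Centromere and checkpoint genes rose most often in the Brca1 model, 7 of 9, and 6 of 9 rose in the p53fp/fp;WAP-cre and C3(1) tumors. There were 3 in p53-/-;transplant, 2 in MMTV-PyMT, 1 in MMTV-her2/neu, 1 in MMTV-myc and 0 in MMTV-ras. Cenpa rose by 1.52 in Brca1, 1.23 in C3(1), 1.17 in p53fp/fp;WAP-cre and 1.06 in p53-/-;transplant tumors. Bub3 rose in 6 models, most in p53fp/fp;WAP-cre (1.26 ± 0.18, adjusted p = 2.77e-06). Cenpf, with clear rises on the reference arrays, had 0.16, 0.47, -0.20, 0.87 and 1.20 in Brca1 tumors (0.50 ± 0.17, adjusted p = 0.0167) and fell in MMTV-PyMT (-0.51 ± 0.19, 0.0433). In C3(1) tumors it was 0.01, -0.02, -0.22, -0.06 and -0.17 on the direct arrays (-0.09 ± 0.17), where the reference arrays gave 1.69. Aurkb rose in Brca1 (1.32 ± 0.13, adjusted p = 7.84e-10) and C3(1) tumors (0.64 ± 0.13, 0.000292), and Nek6 in 4 models, most in p53fp/fp;WAP-cre (1.08).

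Cdkn1a rose in 4 models. It had 3.50, 1.00, 0.77 and 0.69 in Brca1 tumors, 2.17, 2.60, 0.40 and -0.14 in p53fp/fp;WAP-cre tumors and 0.85, 1.73, 0.99, 1.38 and 2.05 in MMTV-ras tumors. The MMTV-ras arrays were all high, while 1 Brca1 array and 2 p53fp/fp;WAP-cre arrays carried their means. The changes were 1.49 ± 0.36, 1.26 ± 0.36 and 1.40 ± 0.33, with 1.10 ± 0.33 in C3(1) tumors and -0.09 ± 0.33 in p53-/-;transplant tumors. Without array 1 the Brca1 value was 0.82 (adjusted p = 0.0629), and the p53fp/fp;WAP-cre value was 0.95 and 0.81 without arrays 1 and 2 (adjusted p = 0.0883 and 0.136). Cdkn2d rose in C3(1) (1.05), Brca1 (0.80) and MMTV-PyMT tumors (0.60), Cdkn1c in MMTV-her2/neu (0.66) and MMTV-PyMT tumors (0.51), and Cdkn2b fell in p53-/-;transplant tumors (-0.59). Cdkn2aip was called in no model. Cdk2ap2, a protein that binds Cdk2, rose in MMTV-myc (1.18) and MMTV-her2/neu tumors (1.08).

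The ratio differed among the 8 models for 30 of 58 genes by moderated F, against 41.6% of all genes. The 5 with the largest F were Kif21a, Kif4, Cdk1, Aurkb and Cdk7. C3(1) tumors were also set against the mean of the 4 other FVB models, MMTV-her2/neu, MMTV-myc, MMTV-ras and MMTV-PyMT, which share the strain. They differed for 13 genes against 11.9% of all genes, 10 higher (6.88%) and 3 lower (4.99%). The higher ones were Cenpa (0.84), Kif11 (0.83 ± 0.23, adjusted p = 0.0184), Cenpt (0.77), Cdkn2d (0.72), Cdk1 (0.72), Kif23 (0.70), Kif4 (0.69 ± 0.14, 0.00141), Cenpb (0.66), Kif3a (0.60) and Cdk16 (0.50). The lower ones were Cenpx (-0.44), Kif21a (-1.01 ± 0.17, adjusted p = 0.000176) and Kifap3 (-1.74 ± 0.50, 0.0215). Without C3(1) array 2 the count fell to 4 genes, and without array 4 or 5 to 8; with the values as deposited it was 19 higher and 2 lower, and after quantile normalization 6 higher and 4 lower.

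The C3(1) model was measured on both kinds of array, with the tumor in Cy3 on the reference arrays and in Cy5 on the direct arrays. Across the 58 genes, which are not independent replicates, the changes of both array sets had a Pearson correlation of 0.474 and a Spearman correlation of 0.429, beside 0.499 and 0.38 over all 5755 genes. The sign of these correlations is no result, since the direction of the direct ratios was chosen so that it is positive. For mitotic kinesins the reference arrays gave a median of 1.39 and the direct arrays 0.84, and Kif15, Kif20b and Kif22, which rose on the first, had -0.06, -0.19 and 0.14 on the second. Kif3a, Cenpb and Cdk16 differed the other way. They were called higher in C3(1) tumors on the direct arrays (1.03, 1.22 and 0.96) and were not called in mammary gland on the reference arrays.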

How the data were processed

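The values deposited by the authors were read as log2 ratios per array feature; per the labels, arrays carry mAdb database numbers. The log base and the direction of the ratio are not given in the sources used here in words. Base 2 was taken because the threshold in the series text (ANOVA p of 0.001 and a 2-fold change) then gave 2634 features, beside the 2638 stated, against 3765 with natural and 4168 with base 10 logs. The labels give the dyes but not which is on top of the ratio. Tissue over reference was taken because lung and fat markers were then high in normal lung and mammary gland, and tumor over normal because the C3(1) changes then correlated above 0 between the array sets. Background correction, spot filters and normalization are not given in the sources used here. Total RNA was extracted with TRIZOL and RNeasy, per the labels.

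Features of a gene were averaged per array. Reference arrays were used as deposited; each direct array was centred on its median. limma 3.58.1 (R 4.3.3) fitted 8 group means per array set over all genes with at least 3 values per group, with Benjamini-Hochberg adjustment over all genes and calls at an adjusted p under 0.05, in 17 comparisons. Features with several symbols (12 whose symbols include such a name) or with no symbol were left out. Of 7486 features with 1 symbol, 7395 matched RefSeq by gene ID. Genes and lists were chosen with earlier results of these data known. Named are, per role group and comparison, up to 3 called genes with the largest rise and up to 3 with the largest fall, every kinesin and Cdk inhibitor, genes called in opposite directions in comparisons that share no array, and the 5 largest moderated F values; arrays are given for the 2 genes of a role group with the widest range over sites and for a few others chosen after their values were seen. Blocks are runs of arrays whose database numbers lie within 20. Replicate numbers did not pair samples: correlations of deviations of same-numbered samples ran from -0.244 to 0.224. On simulated data with 200 changed genes of 6767 the prostate fit recovered 93% of genes changed by 1 log2 unit and 100% of those changed by 2. Of the genes called there, 4% were false. The simulation held independent noise, far fewer changed genes than were called in prostate and no block effect. It cannot show how the fit does in such data. Alternatives were quantile normalization, uncentred values, complete genes, robust variance, the series' threshold, block terms and leaving out single arrays.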

Additional observations from a re-analysis of the deposited data

Results flagged for a closer look

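Over the 19 genes given by array, 277 sets of 4 to 6 arrays of a gene in a group were examined for an array that stands apart from the others, and 14 values stood apart; chance marks about 1 in 20. For Kif4 these were prostate tumor array 5 (2.57) and normal prostate array 4 (-1.32). For Kif11 they were MMTV-her2/neu array 4 (1.12), lung tumor array 1 (1.24) and normal prostate array 3 (-1.96). Cenpw stood apart in normal prostate array 4 (-1.49), Cdkn1a in Brca1 array 1 (3.50) and Kif2a in p53-/-;transplant array 1 (0.30). Kif15 did so in mammary tumor array 3 (0.37), Kif21a in MMTV-PyMT array 5 (0.71), Kif3a in MMTV-ras array 5 (-0.54) and seminal vesicle tumor array 6 (-0.88), and Cdk1 in Brca1 array 4 (1.34) and seminal vesicle tumor array 5 (-1.60).

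Changes that differed between groups by a test of the difference numbered 55 of 69 genes among the 4 sites (74.1% of all genes). Among the 8 direct models they numbered 30 of 58 (41.6%). Between prostate and seminal vesicle there were 44 of 69 (46.7%), and between lung and mammary gland 9 of 69 (24.2%). Between C3(1) and the mean of the 4 other FVB models there were 13 of 58 (11.9%). The range of the change over the sites, for the 5 genes with the largest moderated F, was 1.86 for Cdk17, 2.39 for Kif4, 1.95 for Aurkb, 1.52 for Cdk5r1 and 2.01 for Kif1b. Over the models it was 1.73 for Kif21a, 1.27 for Kif4, 2.00 for Cdk1, 1.22 for Aurkb and 1.15 for Cdk7.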

How the results depend on the processing

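Counts of called genes moved as follows, and the cause was not tested unless named. Values as deposited gave 11 for p53-/-;transplant, 18 for MMTV-myc, 11 for MMTV-ras, 9 for MMTV-PyMT and 21 for C3(1) against the other FVB models. Quantile normalization gave 8 in seminal vesicle, 16 for lung against mammary gland, 27 for p53-/-;transplant and 15 for MMTV-ras. With genes measured on every array, which left 24 genes of the set, the direct counts were 7 (p53-/-;transplant), 13 (p53fp/fp;WAP-cre), 17 (Brca1), 11 (C3(1)), 3 (MMTV-her2/neu), 2 (MMTV-myc), 0 (MMTV-ras) and 6 (MMTV-PyMT), with 14 among the models and 7 for C3(1) against the others. The series' rule (unadjusted p of 0.001 and 2-fold) gave 30 in prostate, 3 in seminal vesicle, 14 in mammary gland, 13 in lung, 29 among sites, 24 for prostate against seminal vesicle, 1 for lung against mammary gland, then 4, 7, 8, 8, 2, 1, 2 and 2 in the direct models in that order, 7 among them and 1 for C3(1) against the others. The database number block gave 12 in seminal vesicle and 23 for prostate against seminal vesicle; for lung against mammary gland it split the calls 3 higher and 4 lower. The block term for C3(1) against the other FVB models could not be fitted with MMTV-myc; without that model, an alternative chosen after seeing the data, 9 genes were called with the block and 15 with no block. Within single blocks mammary gland had 30 and lung 37, the last also chosen after seeing the data. The 1 block with both kinds of prostate array holds 1 tumor and 3 normals, so no count is given for it.

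The replicate number as a block gave 49 in prostate, 33 in seminal vesicle, 33 in mammary gland, 40 in lung, 29 among the models and 12 for C3(1) against the others; the numbers do not pair the samples.

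Leaving out single arrays gave 49 to 55 in prostate, 26 to 38 in seminal vesicle, 28 to 34 in mammary gland, 33 to 39 in lung, 49 to 56 among sites, 37 to 44 for prostate against seminal vesicle and 6 to 12 for lung against mammary gland. In the direct models it gave 11 to 15 (p53-/-;transplant), 14 to 18 (p53fp/fp;WAP-cre), 20 to 29 (Brca1), 25 to 27 (C3(1)), 7 to 10 (MMTV-her2/neu), 2 to 6 (MMTV-myc), 4 to 9 (MMTV-ras) and 11 to 15 (MMTV-PyMT), with 24 to 32 among models and 4 to 13 for C3(1) against the others. Moves over 1.5 times came without p53-/-;transplant array 2 (11), MMTV-myc array 2 (2), MMTV-PyMT array 1 or 5 (11 each) and C3(1) array 2 (4), 4 (8) or 5 (8).

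Of 359 calls on single genes, the quantile setting kept 306, ended 51 and turned 2, Aurkb (-0.13) and Nek2 (-0.026) in seminal vesicle. The database number block turned 6: Aurkb (-0.0094) and Plk1 (0.031) in seminal vesicle, and Cdk18 (0.18), Kif3b (-0.050), Kif6 (-0.037) and Nek6 (-0.062) for prostate against seminal vesicle. In seminal vesicle that block term cannot decide whether a change holds. Leaving out single arrays kept 2944 of 3316 and turned 0. The number of arrays limits these counts.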
